A study of Xenopus laevis with 4 samples.

Results

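Transcripts of the vacuolar-type proton pump (V-ATPase) were followed in whole embryonic skins of the frog Xenopus laevis through 40 probe sets of 27 genes, out of 16745 probe sets tested. A probe set was taken when its single gene symbol, without the final .L or .S that tells apart a gene's L and S homeologs in this allotetraploid species, began with atp6v0, atp6v1, atp6ap1 or atp6ap2. The set comprised 13 probe sets of 9 genes for the V0 sector, 21 of 13 genes for the V1 sector, and 6 of 5 genes for accessory proteins. The SP600125 group was 2 arrays of skins taken at stage 24 from embryos exposed from stage 14 onwards to SP600125, a compound that blocks the ATP site of the JNK family of stress-activated kinases. The labels give its dose as 100 mM, a unit the data cannot check. The control group was 2 arrays of stage 24 skins labelled as having had no treatment, with no vehicle named. Embryos of both groups were grown at 15 °C in MBS, a saline for amphibian embryos, and each array carried RNA pooled from 20 skins. Nothing in the labels says that replicates came from separate clutches, so a p-value here reflects no more than how far these 4 samples lie apart, and that spread may be technical. Kinase activity was not analysed here.

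The V-ATPase is a rotary pump that spends ATP to move protons across a membrane. Its cytosolic V1 sector hydrolyses ATP in a ring of A and B subunits, turns a central stalk that contains D and F, and is held in place by peripheral stalks of E and G with C and H, while the membrane-embedded V0 sector carries protons through the a subunit and a rotating ring of c and b proteolipids, with d and e subunits attached. Every cell uses the pump to acidify lysosomes, endosomes and secretory vesicles. Ionocytes, scattered mitochondria-rich cells of the frog larval skin specified by the forkhead factor Foxi1, in addition place it at the cell surface to secrete acid or drive ion uptake. In mammals the isoforms B1, G3, C2, a4 and d2 are known from acid-secreting cells such as the intercalated cells of the kidney, and their genes are called ionocyte-enriched below. All other V0 and V1 genes are called general. Whether this division holds in frog skin was not measured here.

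The values are RMA levels, 1 per probe set and array on the log2 scale, where a difference of 1 is a doubling. Array medians lay between 6.85 and 6.94; having only 2 arrays in each group limits how precise any value can be. The difference between the 3′ and 5′ gapdh control probe sets, a measure of RNA integrity, was 0.60 and 0.68 in SP600125 skins and 0.71 and 1.08 in control skins; its part in the results was not tested. Among markers of the outer epidermal layer, upk1a.S, a uroplakin gene, read 11.21 and 11.43 in SP600125 skins, against 10.77 and 10.97 in control skins. This gene was named for the small p of its difference. The 31 outer layer probe sets had a median difference of 0.12. Of these, 23 had a higher mean in SP600125 skins and 8 a lower one, against a higher mean in 52.7% of all probe sets. Transcripts of tissue under the skin were also present, and were lower in SP600125 skins. The myosin heavy chain gene myh8.L read 3.61 and 4.15 in SP600125 skins, against 7.05 and 6.02 in control skins. The median difference over 55 probe sets of muscle genes was −0.75. In 36 of the 55 both SP600125 arrays lay below both controls, where 9.25% of all probe sets did so.

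V-ATPase transcripts had, for the most part, higher means in SP600125 skins. The mean was higher for 32 of the 40 probe sets and lower for 8, against a higher mean in 52.7% of all probe sets. The median log2 difference, SP600125 minus control throughout, was 0.26 over the 40 probe sets and 0.01 over all probe sets. Both SP600125 arrays lay above both controls for 16 of the 40, where 11.9% of all probe sets did so, and below both controls for 0 of the 40, where 9.25% did. These 16 belong to 13 of the 27 genes, counting a gene with any such probe set, and the other 24 probe sets had overlapping groups. All probe sets lay above for 10 genes. Neither gene count was made over all genes of the array. None of the 40 was dim (mean under 5), and among all probe sets with a mean of at least 5 the share with a higher mean was 51.8% and the share above both controls 10.7%.

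No V-ATPase probe set passed the test by itself. In the limma fit, with p-values adjusted by Benjamini-Hochberg over the 16745 probe sets, 0 had an adjusted p under 0.05 (0% of those tested), and each adjusted p given here is 1. At an unadjusted p under 0.05, 3 of the 40 were higher, where 0.699% of all probe sets were, and 0 were lower, where 0.908% were. The 3 were both probe sets of atp6v1f.L and a probe set of atp6ap1.1.L. None of them kept an unadjusted p under 0.05 when either SP600125 array was left out or when dim probe sets were left out of the fit, where their p lay between 0.0703 and 0.161, and 1 of the 3 did when either control array was left out. Without SP600125 replicate 1 the median difference was 0.08 over the 40 and −0.11 over the 21 V1 probe sets. SP600125 replicate 2 alone lay above both controls for 20 of the 40 and below both for 16. Of all probe sets, 39.9% and 30.3% did so. Without SP600125 replicate 1, both atp6v1a.L probe sets differed by −1.31, atp6ap1.2.S by −1.35 and a probe set of atp6v1b2.S by −0.96. Part of the pump was thus lower in that run. In a bulk sample, fewer cells of a type and less RNA per cell cannot be told apart, so a difference in a pump transcript may be either.

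**Figure D1:**
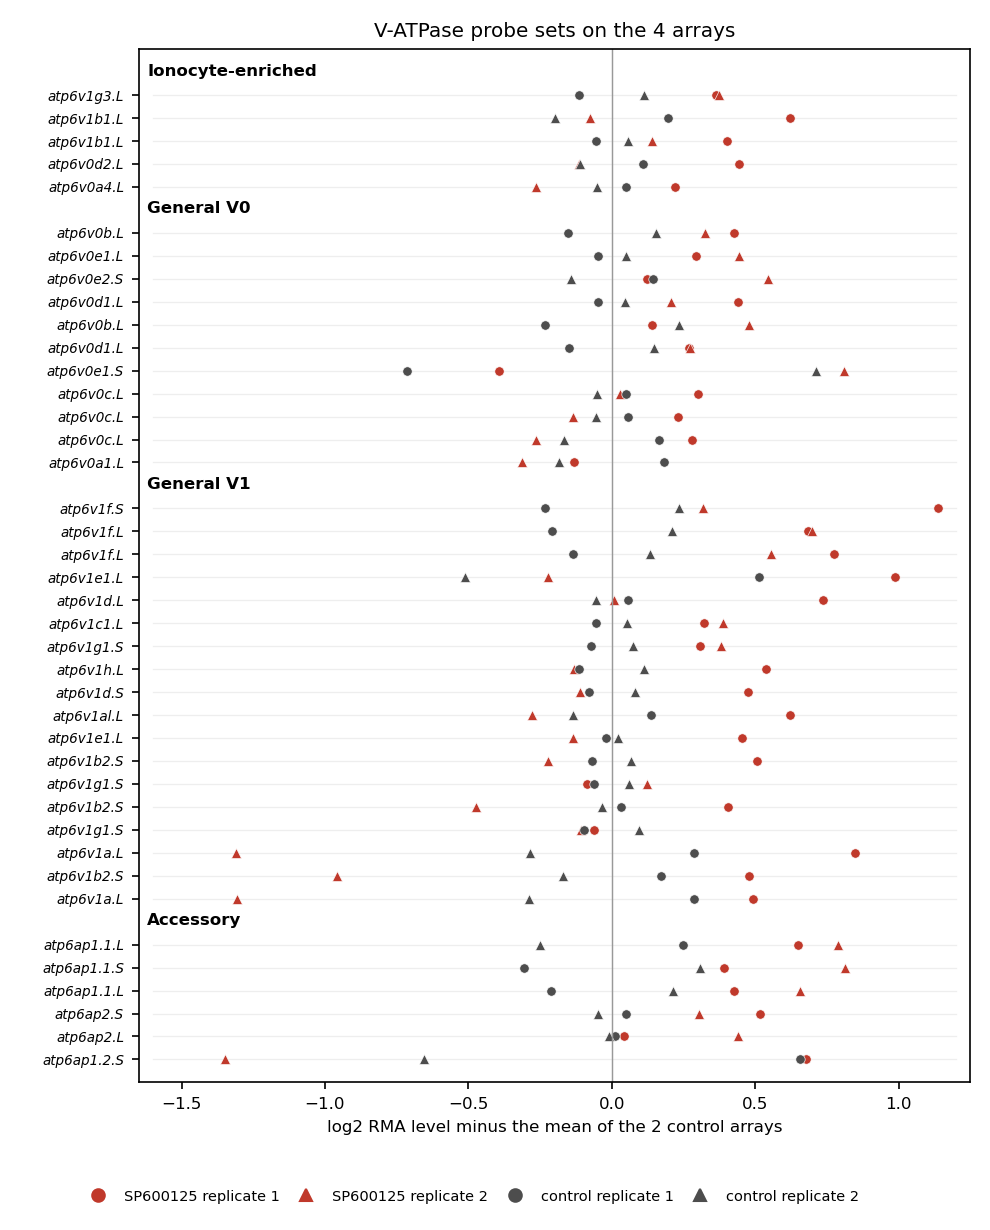
RMA level on each of the 4 arrays for the 40 V-ATPase probe sets, a row each, as the log2 difference from the mean of the 2 control arrays (x axis). Red marks are SP600125 arrays and grey marks control arrays, circles are replicate 1 and triangles replicate 2. In 16 rows both red marks lie to the right of both grey ones, and in 14 rows the red circle lies to the right and the red triangle to the left of both.

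The 2 SP600125 arrays did not show the pump in the same way. SP600125 replicate 1 lay above both controls for 34 of the 40 probe sets, where 26.3% of all probe sets did so. SP600125 replicate 2 lay above both controls for 20 and below both for 16, where 39.9% and 30.3% of all probe sets did. For 14 of the 40 the treated arrays stood on opposite sides of the controls, replicate 1 above and replicate 2 below, against 8.63% of all probe sets. Of these 14, 9 were V1 probe sets, 4 V0 and 1 accessory. The median difference over the 40 was 0.42 without SP600125 replicate 2 and 0.08 without SP600125 replicate 1, so the size of the shift rests on replicate 1. Without control replicate 1 it was 0.24 and without control replicate 2 it was 0.25. The median of SP600125 replicate 2 minus control replicate 1 was 0.087 over the 40 and 0.079 over all probe sets. Minus control replicate 2 the medians were 0.084 and 0.022. The count of probe sets above both controls was 34 without SP600125 replicate 2 and 20 without SP600125 replicate 1, where a single treated array has to lie above.

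**Figure D2:**
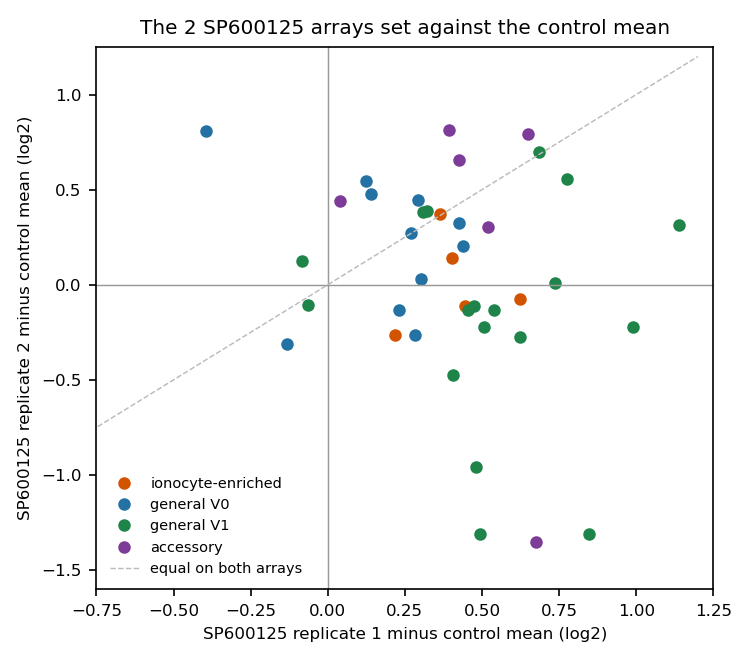
Each of the 40 V-ATPase probe sets by its log2 level in SP600125 replicate 1 (x axis) and SP600125 replicate 2 (y axis), both minus the control mean, coloured by class. Points at the lower right, among them both atp6v1a.L probe sets, atp6v1b2.S and atp6ap1.2.S, are high in replicate 1 and low in replicate 2; points near the dashed line have like values in both.

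In the V1 sector, the rotor subunit F gave the clearest separation. The first probe set of atp6v1f.L read 10.61 and 10.62 in SP600125 skins, against 9.72 and 10.13 in control skins. Its other probe set read 10.13 and 9.91 in SP600125 skins, against 9.22 and 9.49 in control skins. In both the treated arrays lay above the controls with a gap wider than the spread of either group, and the differences were 0.69 ± 0.23 and 0.66 ± 0.22 (SE of the limma fit; unadjusted p = 0.041 and 0.038, adjusted p = 1), a fold of 1.61 and 1.59. The homeolog atp6v1f.S, a dimmer probe set, read 7.43 and 6.61 in SP600125 skins, against 6.06 and 6.53 in control skins. There the groups were apart by 0.08 only, with a difference of 0.73 ± 0.38. The probe set of atp6v1f.L with the smaller difference is, by the suffix of its name, of a type whose probes match several transcripts, so it and atp6v1f.S may share signal.

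The general genes of the catalytic ring, atp6v1a.L and atp6v1b2.S, showed no separation. Subunit A, encoded by atp6v1a.L, binds and hydrolyses ATP. Its first probe set read 10.03 and 7.87 in SP600125 skins, against 9.46 and 8.89 in control skins, and its other probe set read 9.47 and 7.67, against 9.26 and 8.69. In both the treated arrays enclosed the controls, with SP600125 replicate 1 highest and replicate 2 lowest of the 4. The mean differences were −0.23 ± 0.80 and −0.41 ± 0.69, both smaller than their errors. They turned to 0.85 and 0.49 without SP600125 replicate 2. The gene atp6v1al.L, annotated beside it as an A-like gene, read 10.69 and 9.80 in SP600125 skins, against 10.21 and 9.94 in control skins, the same order of arrays at a smaller spread.

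Subunit B, the other part of the ring, was represented by the general gene atp6v1b2.S with 3 probe sets and by the ionocyte-enriched atp6v1b1.L, given below. The probe sets of atp6v1b2.S differed by 0.14 ± 0.32, −0.03 ± 0.36 and −0.24 ± 0.55. The last read 9.48 and 8.04 in SP600125 skins, against 9.17 and 8.83 in control skins. In all 3 probe sets of atp6v1b2.S the treated arrays lay on both sides of the controls, as for subunit A. The largest distance between the treated arrays of any probe set of the sector was in atp6v1a.L, where the standard deviation was 1.53 in SP600125 skins and 0.40 in control skins (n = 2 each).

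Stalk subunits were split. The rotor subunit D gene atp6v1d.L read 11.29 and 10.56 in SP600125 skins, against 10.61 and 10.50 in control skins, and its homeolog atp6v1d.S read 10.54 and 9.95, against 9.98 and 10.14. Both means were higher, by 0.37 ± 0.32 and 0.18 ± 0.28, and in both only SP600125 replicate 1 stood above the 2 controls. The peripheral stalk gene atp6v1e1.L had a probe set at 10.61 and 9.40 in SP600125 skins, against 10.13 and 9.11 in control skins, where replicate 2 was about 1 lower than replicate 1 in each group. Its other probe set differed by 0.16 ± 0.28, and the regulatory subunit H gene atp6v1h.L by 0.20 ± 0.31. Both were high in SP600125 replicate 1 alone.

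The stalk genes atp6v1c1.L and atp6v1g1.S had separated groups. Subunit C, which joins and leaves the complex when the pump assembles and comes apart, read 11.19 and 11.25 (atp6v1c1.L) in SP600125 skins, against 10.81 and 10.92 in control skins. The SP600125 arrays differed by less than 0.1 there, and the group difference of 0.36 ± 0.19 was a fold of 1.28 (unadjusted p = 0.132). For subunit G, the bright probe set of atp6v1g1.S read 11.38 and 11.45 in SP600125 skins, against 11.00 and 11.14 in control skins. The other probe sets of that gene overlapped between groups, with differences of 0.02 ± 0.20 and −0.08 ± 0.20. Probe sets of the same gene thus gave unlike values here.

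Over the 21 V1 probe sets, 16 had a higher mean and 7 had both SP600125 arrays above both controls. In the limma fit 2 were higher at an unadjusted p under 0.05. Of all probe sets, 52.7%, 11.9% and 0.699% did so. The median difference over the sector was 0.20. As deviations from each probe set's own mean, the array medians of the sector were 0.44 and −0.20 in SP600125 skins, against −0.13 and −0.08 in control skins. Without SP600125 replicate 1 the median difference turned to −0.11, and without SP600125 replicate 2 it was 0.49.

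In the membrane sector separated groups were found for the proteolipid b, the stalk foot d and the small subunit e, in 4 probe sets of atp6v0b.L, atp6v0d1.L and atp6v0e1.L. A probe set of atp6v0b.L read 10.54 and 10.44 in SP600125 skins, against 9.96 and 10.27 in control skins, a difference of 0.38 ± 0.22. Its other probe set gave 0.31 ± 0.27, with groups that overlapped by 0.09. The gene atp6v0d1.L, whose product couples the proteolipid ring to the central stalk, read 9.68 and 9.45 in SP600125 skins, against 9.20 and 9.29 in control skins. Its second probe set read 11.21 in each SP600125 skin sample, against 10.79 and 11.09 in control skins, so both probe sets had separated groups, at 0.32 ± 0.20 and 0.27 ± 0.21.

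Subunit e, a small hydrophobic part of the sector, was represented by 3 genes. The level of atp6v0e1.L was 11.03 and 11.18 in SP600125 skins, against 10.69 and 10.79 in control skins, a fold of 1.29. Its homeolog atp6v0e1.S read 8.16 and 9.36 in SP600125 skins, against 7.84 and 9.27 in control skins, where replicate 2 exceeded replicate 1 in each group and the treatment difference of 0.21 ± 0.68 was far inside that spread. The gene atp6v0e2.S, the dimmest member, differed by 0.33 ± 0.26, with overlapping groups.

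Differences were small along the proton path. The main ring proteolipid c, encoded by atp6v0c.L, had 3 probe sets at 0.17 ± 0.21, 0.05 ± 0.23 and 0.01 ± 0.29. The first read 11.50 and 11.23 in SP600125 skins, against 11.25 and 11.15 in control skins, and all 3 had overlapping groups. The general a subunit gene atp6v0a1.L had a lower mean, at 8.65 and 8.47 in SP600125 skins, against 8.97 and 8.60 in control skins, a difference of −0.22 ± 0.23 with overlapping groups. Over the 13 V0 probe sets 11 means were higher, 4 had both SP600125 arrays above both controls and 0 had an unadjusted p under 0.05 in the limma fit. Of all probe sets, 52.7% had a higher mean and 11.9% had both SP600125 arrays above both controls. The V0 median difference was 0.21, and with each array left out in turn it ranged from 0.17 to 0.27. Unlike the V1 median it kept its direction in all 4 of these runs, but the difference between the sectors was not tested.

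The ionocyte-enriched genes did not differ alike. Subunit G3, known from acid-secreting cells of the mammalian kidney, had the closest pair of treated values in this class, but not of control values. The level of atp6v1g3.L was 11.78 and 11.79 in SP600125 skins, against 11.30 and 11.53 in control skins. The groups were apart by 0.25, and the difference was 0.37 ± 0.20, a fold of 1.29 (unadjusted p = 0.139, adjusted p = 1).

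Subunit B1 is the acid-secreting counterpart of B2. A probe set of atp6v1b1.L read 11.15 and 10.89 in SP600125 skins, against 10.69 and 10.80 in control skins, and was above the controls on both treated arrays by a margin of 0.08. Its other probe set read 10.75 and 10.05 in SP600125 skins, against 10.32 and 9.93 in control skins, with overlapping groups. The differences were alike, at 0.27 ± 0.21 and 0.27 ± 0.34.

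The V0 isoforms overlapped between groups. The d2 gene atp6v0d2.L read 11.05 and 10.49 in SP600125 skins, against 10.71 and 10.50 in control skins, a difference of 0.17 ± 0.28 carried by replicate 1. The a4 gene atp6v0a4.L, encoding the isoform of the a subunit found at the surface of mammalian acid-secreting cells, read 10.10 and 9.62 in SP600125 skins, against 9.93 and 9.83 in control skins. Its difference was −0.02 ± 0.25, with the treated arrays on both sides of the controls. No probe set carried the symbol atp6v1c2, so the C2 isoform was not analysed here.

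**Figure D3:**
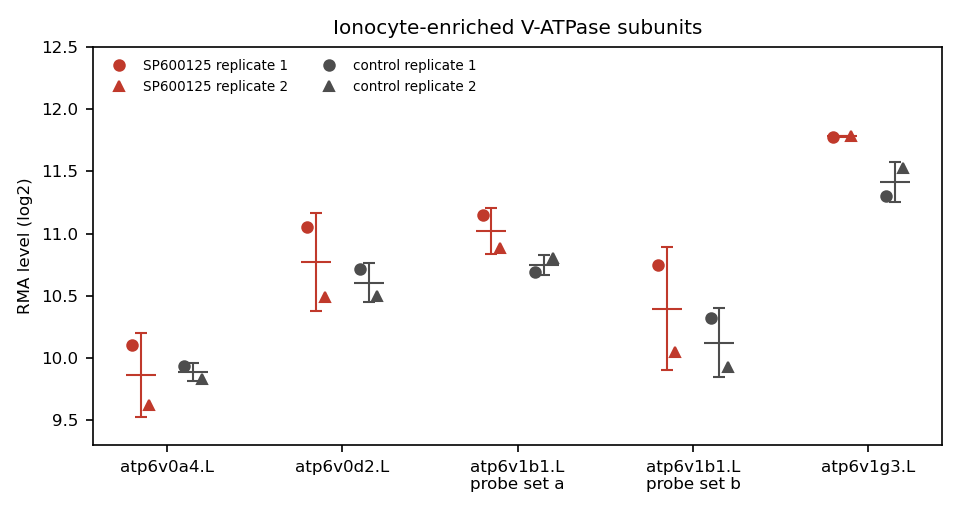
RMA level (log2, y axis, not starting at 0) of the 5 probe sets of ionocyte-enriched subunits, SP600125 in red to the left and control in grey to the right of each tick. Circles are replicate 1, triangles replicate 2, and bars the mean ± SD of the 2 arrays. The groups are apart for atp6v1g3.L and for probe set a of atp6v1b1.L and overlap for the other 3.

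Ionocyte-enriched subunits were then set against the general ones. The median was 0.27 over the 5 ionocyte-enriched probe sets and 0.20 over the 29 general ones. Both SP600125 arrays lay above both controls for 2 of 5 and 9 of 29, where 11.9% of all probe sets did so. The mean was higher for 4 of 5 and 23 of 29, where 52.7% of all probe sets had a higher mean. As deviations from each probe set's own mean, the array medians of the ionocyte-enriched probe sets were 0.27 and −0.20 in SP600125 skins, against 0.03 and −0.08 in control skins. Those of the general probe sets were 0.28 and −0.06 in SP600125 skins, against −0.13 and −0.08 in control skins. Without SP600125 replicate 1 the medians were −0.08 for ionocyte-enriched and 0.01 for general subunits, so with SP600125 replicate 2 alone neither class kept its size. The distance between the classes was not tested, and 5 probe sets of 4 genes are few.

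Accessory proteins had the highest median of the classes, at 0.48 over 6 probe sets, 5 of which had both SP600125 arrays above both controls. Of all probe sets, 11.9% did so. The 5 all belong to the L and S copies of atp6ap1.1 and atp6ap2. Atp6ap1, also called Ac45, is needed to assemble the V0 sector. The gene atp6ap1.1.L read 7.82 and 7.96 on a probe set in SP600125 skins, against 7.42 and 6.92 in control skins, a difference of 0.72 ± 0.26 (unadjusted p = 0.0484, adjusted p = 1) and a fold of 1.65. Its other probe set read 9.51 and 9.74 in SP600125 skins, against 8.87 and 9.29 in control skins. The homeolog atp6ap1.1.S read 9.06 and 9.48 in SP600125 skins, against 8.37 and 8.98 in control skins. All 3 probe sets thus had separated groups, with differences between 0.54 and 0.72.

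The second gene of this name differed from the first. The level of atp6ap1.2.S was 9.69 and 7.66 in SP600125 skins, against 9.67 and 8.35 in control skins. Replicate 1 was at a like level in both groups, replicate 2 was lower than replicate 1 in both, and the difference of −0.34 ± 0.86 was small beside that spread. The order of arrays from high to low, SP600125 replicate 1, control replicate 1, control replicate 2 and SP600125 replicate 2, was also that of both atp6v1a.L probe sets.

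Atp6ap2, the prorenin receptor, binds the pump and also serves in Wnt signalling. The level of atp6ap2.L was 11.62 and 12.02 in SP600125 skins, against 11.59 and 11.57 in control skins, so replicate 1 of SP600125 exceeded the controls by only 0.03. The homeolog atp6ap2.S read 10.31 and 10.10 in SP600125 skins, against 9.84 and 9.75 in control skins, a gap of 0.26. The differences were 0.24 ± 0.23 and 0.41 ± 0.20. The accessory median stayed above 0 with each array left out, between 0.32 and 0.55.

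**Figure D4:**
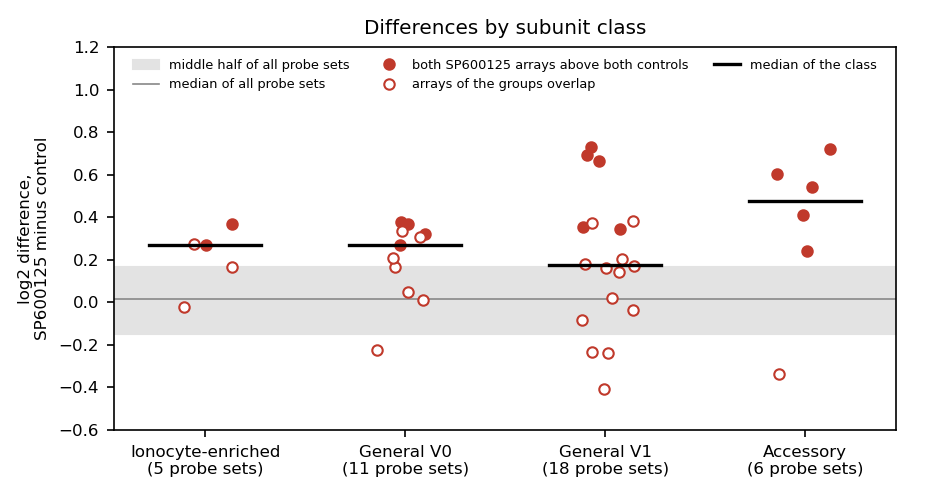
Log2 difference, SP600125 minus control (y axis), for each of the 40 V-ATPase probe sets by class. Filled circles have both SP600125 arrays above both controls, open circles have overlapping groups, black lines are class medians, and the grey line and band are the median and interquartile range of all probe sets (−0.15 to 0.17). The class medians are 0.27, 0.27, 0.18 and 0.48 from left to right.

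Homeologs and repeated probe sets of a gene were compared with each other. Of the 27 genes, 10 had several probe sets, and in 8 of those the differences shared a sign; the exceptions were atp6v1b2.S and atp6v1g1.S. For 5 symbols both homeologs were measured, and all 5 pairs had higher means in both copies. The pairs were atp6ap1.1, atp6ap2, atp6v0e1, atp6v1d and atp6v1f. Neither count was made over all genes of the array, so no background share stands beside them. Probes designed for a copy may pick up its homeolog, so the copies are not independent measurements. With the probe sets of a gene averaged, 22 of 27 genes had a higher mean, against 54.2% of all 11295 genes averaged the same way. The array did not cover the whole pump by this rule. A RefSeq gene table lists 43 genes under these symbols, and 16 of them, among them atp6v0a2.L, atp6v1c2.L and atp6v1g2.L, were not matched to a probe set.

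Other ionocyte genes had a list median near that of all probe sets. Over 36 probe sets of 25 genes of ionocyte fate and ion transport the median difference was 0.03, with 20 higher means, 7 probe sets with both SP600125 arrays above both controls and 5 below. These are 55.6%, 19.4% and 13.9% of the list, against 52.7%, 11.9% and 9.25% of all probe sets. The fate regulator foxi1.L read 10.27 and 10.33 in SP600125 skins, against 9.59 and 9.80 in control skins (0.61 ± 0.20; unadjusted p = 0.037, adjusted p = 1). The carbonic anhydrase gene ca12.L, whose product supplies acid and base for transport, had probe sets at 0.47 ± 0.23, with separated groups, and 0.45 ± 0.36. The anion exchanger slc4a1.L, which is also a red cell protein, was lower on both treated arrays, at 8.05 and 7.96 in SP600125 skins, against 8.34 and 8.21 in control skins. The ionocyte regulator ubp1.L differed by −0.47 ± 0.63 and −0.23 ± 0.91. These errors include a distance between replicate numbers that both groups shared. Replicate 2 minus replicate 1 was −1.37 in SP600125 and −1.07 in control skins on the first probe set. On the other it was −1.77 and −1.85. The symbol slc26a4 matched no probe set.

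Genes that assemble or work beside the pump had a median of 0.08 over 15 probe sets of 12 genes, with 8 higher means, 3 probe sets above and 1 below. That median was 0.28 without SP600125 replicate 1 and 0.023 without SP600125 replicate 2. The assembly chaperone of V0, vma21.L, read 11.16 and 11.32 in SP600125 skins, against 10.54 and 11.04 in control skins, a difference of 0.45 ± 0.26. The gene meak7.L, a lysosomal TLDc domain protein, differed by 0.42 ± 0.27. Lysosomal genes, where the pump acts in every cell, had a median of 0.06 over 60 probe sets of 42 genes, with 42 higher means, 15 probe sets above and 3 below. It was 0.010 without control replicate 1 and 0.15 without control replicate 2. Those with the smallest p were the cathepsin gene ctsz.S at −0.51 ± 0.20 and the thioesterase gene ppt1.S at 1.03 ± 0.42. The ppt1.S probe set was dim, with a mean of 4.62. None of these 3 lists had an adjusted p under 0.05 for any probe set. Of all probe sets, 52.7% had a higher mean, 11.9% had both SP600125 arrays above both controls and 9.25% had both below.

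Markers of the other cells in the preparation were read beside the pump. Among all probe sets, 11.9% had both SP600125 arrays above both controls and 9.25% had both below. Outer layer genes had a median of 0.12 over 31 probe sets, with 11 above and 0 below; upk1a.S differed by 0.45 ± 0.21 and anxa2.L by 0.41 ± 0.20. Multiciliated cell genes had a median of 0.03 over 27 probe sets, with 5 above and 2 below, and dnai2.S and tekt1.L at 0.49 ± 0.24 and 0.44 ± 0.23. The treated arrays disagreed on this list. SP600125 replicate 1 lay above both controls in 14 of the 27, where 26.3% of all probe sets did so. Replicate 2 lay below both in 13, where 30.3% did. In 8 of the 27 replicate 1 lay above and replicate 2 below both controls, against 8.63% of all probe sets. The list median was −0.056 without replicate 1 and 0.19 without replicate 2 of SP600125. It also turned when either control array was dropped, to −0.026 and −0.011. Goblet and small secretory cell genes had a median of 0.02 over 10 probe sets, with 1 above and 0 below. That 1 was a probe set of capn9.L (0.31 ± 0.25), and another probe set of the gene gave 0.30 ± 0.25. Basal layer genes had a median of −0.08 over 17 probe sets, with 8 higher and 9 lower means, 3 above and 3 below. The 2 with the smallest p, tgfb1.L and itgb1.L, were both lower, at −0.98 ± 0.21 and −0.58 ± 0.21. The basal median turned to 0.045 when control replicate 1 was dropped and to 0.040 when SP600125 replicate 2 was. Dropping control replicate 2 gave −0.41, and a fit that omitted dim probe sets gave −0.36.

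Medians of the inner tissue lists were below 0. Beside the muscle list, with myh8.L and cacng1.L at −2.65 ± 0.45 and −1.85 ± 0.29, the median was −0.31 over 47 probe sets of endoderm, blood and kidney genes, with 16 below and 2 above. In that list darmin.L and gata4.L differed by −3.33 ± 0.55 and −1.41 ± 0.20. Neural genes had a median of −0.24 over 34 probe sets, with 4 below (11.8%) and 2 above (5.88%). Over all probe sets 9.25% lay below and 11.9% above, so the neural count below was near that share. The neural genes en2.L and en2.S, both dim (means 4.38 and 4.81), differed by −1.10 ± 0.29 and −0.86 ± 0.25. The neural median turned to 0.13 without control replicate 1 and was −0.78 without control replicate 2, while the muscle and endoderm lists kept medians below 0 with each array left out. Muscle array medians, as deviations from each probe set's own mean, were −0.43 and −0.22 in SP600125 skins, against 0.56 and 0.33 in control skins. These values lay beside the higher means of pump transcripts, and their part in the pump's values was not tested.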

How the data were processed

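Affymetrix arrays measured 2 SP600125 and 2 control samples, grouped and numbered by their titles. The deposited series matrix holds log2 values, made, per the submitters' processing notes, by affy with RMA; versions, probe definition and filters are not given in any source here. RMA gives all arrays nearly the same distribution, which hides a shift common to most transcripts. Values lay between 2.60 and 14.3. Leaving out 10 control rows of 16755 left 16745.

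Symbols came from GEO's platform annotation (15445 probe sets with 1, 279 with several, 1021 with none), and all 40 V-ATPase probe sets had the same symbol in RefSeq's gene table of assembly Xenopus_laevis_v10.1. SP600125 minus control was fitted over the whole table by limma (version 3.58.1, R 4.3.3; eBayes moderation, two-sided, 2 residual plus 2.10 prior degrees of freedom), with Benjamini-Hochberg adjustment at 0.05. The fit was tested on simulated data with independent noise and with changes larger than any V-ATPase difference. That run does not show how the fit handles smaller differences or likeness between same-numbered arrays. Figures used matplotlib 3.10.9.

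The members, lists and ionocyte-enriched class were chosen with earlier results of these data known. Named by rule were all ionocyte-enriched and accessory probe sets, the 4 highest and 4 lowest differences of general V0 and V1, 5 ionocyte genes, and the 2 smallest p of each other list; further members were named after their values were seen. As alternatives, the fit was repeated with a replicate block, cyclic loess or quantile normalization, a minimum mean of 5, other priors and weights, 1 value per gene, an adjusted p under 0.1, and each array left out. Promoter letters were not analysed here.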

Additional observations from a re-analysis of the deposited data

How the results depend on the processing

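No setting produced a probe set with an adjusted p under 0.05 or under 0.1 in the whole table, and the lowest adjusted p over all alternatives was 0.761, with the replicate block. The counts at an unadjusted p under 0.05, 117 higher and 152 lower, became 453 and 610 with the replicate block and 62 and 96 with probe sets under a mean of 5 left out. They ranged from 57 to 215 and from 92 to 301 with each array left out. The labels give shared replicate numbers but no shared batch, so the numbers were not taken to pair the samples. Deviations of same-numbered arrays nevertheless correlated, at 0.59 over all probe sets and 0.72 over the V-ATPase probe sets. Number took up 59.4% of the V-ATPase sum of squares and treatment 23.8%, against 62.7% and 20.8% over all probe sets. The source of this likeness was not tested. With the replicate block, 5 of the 40 V-ATPase probe sets were higher at an unadjusted p under 0.05 in the limma fit and 0 lower, where 453 and 610 of all 16745 were. The replicate block leaves every log2 difference as it is.

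The median of SP600125 replicate 2 minus control replicate 1 was 0.087 over the V-ATPase probe sets and 0.079 over all probe sets. Minus control replicate 2 the medians were 0.084 and 0.022. The V-ATPase median stayed above 0 in every alternative run, but was not tested against that of all probe sets without SP600125 replicate 1. With each array left out it ranged from 0.077 to 0.42, that of general subunits from 0.0080 to 0.42, that of accessory genes from 0.32 to 0.55, and that of ionocyte-enriched subunits from −0.077 to 0.40, turning without SP600125 replicate 1. The V1 median ranged from −0.11 to 0.49 and turned in the same run. Medians of other lists with each array left out ranged from −0.78 to 0.13 for neural, −0.41 to 0.045 for basal, −0.056 to 0.19 for multiciliated, −0.019 to 0.14 for goblet, −0.0042 to 0.072 for ionocyte, 0.043 to 0.16 for outer layer, −0.97 to −0.71 for muscle and −0.47 to −0.20 for endoderm, blood and kidney genes. With dim probe sets left out the muscle median was −1.50 and the endoderm, blood and kidney median −0.59. Of 27 named V-ATPase probe sets, 16 kept their sign throughout. The other 11 turned with an array left out, over these ranges: −0.13 to 0.23 and −0.26 to 0.28 for 2 probe sets of atp6v0c.L, −0.11 to 0.44 for atp6v0d2.L, −0.077 to 0.62 for a probe set of atp6v1b1.L, −0.22 to 0.99 for a probe set of atp6v1e1.L, −1.35 to 0.68 for atp6ap1.2.S, −0.26 to 0.22 for atp6v0a4.L, −1.31 to 0.85 and −1.31 to 0.49 for atp6v1a.L, −0.96 to 0.48 for a probe set of atp6v1b2.S, and −0.18 to 0.011 for a probe set of atp6v1g1.S. The 2 probe sets of ubp1.L ranged from −1.16 to 0.21 and from −1.15 to 0.69. A probe set of atp6v0c.L also turned after renewed cyclic loess (−0.027) and quantile normalization (−0.020), and that of atp6v1g1.S when the gene's probe sets were averaged (0.093). The cause of these turns was not tested; these runs have 1 array in a group, which is assumed to vary like the other group. Leaving out probe sets of the x, s and a types, an alternative chosen after seeing the data, gave a V-ATPase median of 0.27.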
